A study of Mus musculus with 21 samples.

Results

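The comparison described here set the colon of mice that carried the vitamin D receptor (VDR) only as a distal intestinal transgene against the colon of mice without intestinal VDR. Its members, chosen by their labels, were 8 of the 21 RNA libraries of the study, 4 from uninjected transgenic colon and 4 from KO colon. The KO genotype was Villin-CreERT2 VDR f/f, in which a Cre recombinase made under the villin promoter of intestinal epithelium deletes floxed VDR after its activation by tamoxifen. The transgenic genotype was CDX2-VDR, in which the mouse has no VDR of its own and the human receptor is made in the distal intestine alone. Both groups were on the C57BL6J strain and received no treatment apart from any tamoxifen. The KO mice were all labelled male, 3 of them 11 weeks and 1 of them 9 weeks old. Of the uninjected mice 3 were labelled female and 9 weeks old, and 1 (Colon uninjected 4) was labelled male and 10 weeks old. The route by which VDR was lost, the tissues that lost it, the transgene and any tamoxifen differ together between the groups. In part sex and age differ with them, and none of these can be told apart. The title of the study sets its question in the distal gut, as a site of control of calcium and bone.

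VDR is a nuclear receptor that, bound to 1,25-dihydroxyvitamin D and paired with a retinoid X receptor, switches genes on from pairs of short DNA half-sites. In absorbing epithelium its best known targets move calcium across the cell: the apical channel TRPV6 admits it, the cytosolic protein calbindin-D9k (gene S100g) carries it, and the basolateral pump PMCA1 (gene Atp2b1) expels it. CYP24A1, which degrades the hormone, is its classical feedback target, and the colon can take up calcium that the small intestine has left behind.

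The 250 bases before the start site of genes that rose in transgenic colon (values below) are given first, since these genes rose together. They are RefSeq promoters of build GRCm38.p6, printed 5′ to 3′ on the gene's strand. Anxa13, Ang3 and 5033404E19Rik, also past the threshold, are named only. Capitals mark every match, on either strand, to AGGTCA, the consensus half-site of nuclear receptors, or to the variant GGTTCA.

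Trpv6 (chr6:41636406-41636655, minus strand): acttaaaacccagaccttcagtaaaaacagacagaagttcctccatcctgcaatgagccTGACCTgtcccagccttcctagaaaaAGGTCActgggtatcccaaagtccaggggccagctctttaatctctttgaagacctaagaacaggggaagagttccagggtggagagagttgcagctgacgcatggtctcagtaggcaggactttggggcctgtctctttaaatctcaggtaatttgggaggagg
S100g (chrX:162964600-162964849, minus strand): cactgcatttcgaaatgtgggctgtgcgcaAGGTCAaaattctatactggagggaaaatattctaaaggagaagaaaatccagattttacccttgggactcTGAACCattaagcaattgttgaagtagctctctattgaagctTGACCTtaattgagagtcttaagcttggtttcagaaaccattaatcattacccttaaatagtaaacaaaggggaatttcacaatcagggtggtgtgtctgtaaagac
Slc34a2 (chr5:53049103-53049352, plus strand): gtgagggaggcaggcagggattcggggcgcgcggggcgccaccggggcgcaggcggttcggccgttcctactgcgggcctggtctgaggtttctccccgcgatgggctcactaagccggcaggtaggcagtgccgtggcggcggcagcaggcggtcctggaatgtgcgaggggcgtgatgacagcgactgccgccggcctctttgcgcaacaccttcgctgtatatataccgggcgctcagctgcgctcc
Slc30a10 (chr1:185454598-185454847, plus strand): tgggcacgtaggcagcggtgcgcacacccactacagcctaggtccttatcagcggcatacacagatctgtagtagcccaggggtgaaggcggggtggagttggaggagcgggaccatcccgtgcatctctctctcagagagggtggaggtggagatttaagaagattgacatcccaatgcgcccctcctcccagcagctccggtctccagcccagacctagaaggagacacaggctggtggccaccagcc
Selenbp2 (chr3:94693323-94693572, plus strand): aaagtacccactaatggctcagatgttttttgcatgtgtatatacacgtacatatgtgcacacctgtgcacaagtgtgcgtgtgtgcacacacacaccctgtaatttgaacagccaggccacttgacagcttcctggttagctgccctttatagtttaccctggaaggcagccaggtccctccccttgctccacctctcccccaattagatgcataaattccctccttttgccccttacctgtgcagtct

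Trpv6 held 2 matches to AGGTCA, and S100g held 2 to AGGTCA and 1 to GGTTCA. The other promoters shown had no match to either motif in this window. Over the 32851 promoter windows of the same length in the table, 4607 (14%) held AGGTCA and 2906 (8.85%) held GGTTCA, so that a match is common. None of the 5 held a VDR direct repeat with a spacer of 3 bases, found in 0.0396% of windows, or TTTATGG, a core motif of CDX proteins found in 2.43%. These matches are descriptions of letters and show no binding.

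RNA was sequenced from poly(A)-selected libraries and deposited as FPKM per gene. Reads that could be recovered from the steps of the values ranged from 12.66 to 27.42 M in 7 libraries and stood at 7.27 M in Colon uninjected 3, and between 16173 and 17109 genes were above 0. The label names intestinal epithelium. Epithelial Epcam was high at 670.3 to 1286 FPKM, and colonic Car1 at 1461 to 9125, but smooth muscle Myh11, at 22.3 to 225.9 FPKM, and adipocyte Adipoq, at 5.24 to 55.0, were present in all 8 libraries, so other layers contributed RNA. In such bulk samples, fewer cells of a type and less RNA per cell cannot be told apart. Several libraries stood apart from the rest. Pancreatic acinar transcripts had a median over 20 genes of 1803 FPKM in Colon KO 2 and 5339 in Colon uninjected 3, where they made up 15.5% of the FPKM sum, against at most 25.8 FPKM elsewhere. Values rose with GC content by 0.82 and 0.44 log2 units per 10% in Colon uninjected 1 and 2, whereas the other 6 slopes lay between -0.39 and -0.03. The first principal component (42.5% of variance) set Colon uninjected 3 apart, and the second (32.8%) set Colon uninjected 1 and 2 apart. Of the 3 libraries labelled female, only Colon uninjected 2 had Xist, transcribed from the inactive X chromosome, above 1 FPKM (5.91). Colon uninjected 3 held 12.1 FPKM of the Y-linked Ddx3y and 0.26 of Xist, and Colon uninjected 1 had neither (0.10 and 0.09), so 2 libraries did not carry the pattern of their sex label. Where labelled sex enters a fit below, it is used as given. As every KO mouse was labelled male, such a fit sets only Colon uninjected 4, labelled male, against the KO libraries. Its differences thus rest on 1 transgenic library. No identifier of an animal is given, so p-values measure the spread between these samples only.

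Vdr itself did not separate the groups. The mouse gene (15:97684856-97741061, mm9) stood at 22.9, 23.5, 20.6 and 20.9 FPKM in Colon KO 1 to 4 and at 34.0, 19.3, 12.7 and 33.0 in Colon uninjected 1 to 4, the order in which all such values are given (log2 0.06, SE 0.307, adjusted p = 0.943, limma). The uninjected values lay on both sides of the tightly grouped KO values. A level per gene cannot show the deleted exons, and human transgene reads may fall on it, so the value checks no label. Of 11 tested genes of the wider receptor machinery, which included its RXR partners and coactivators, 0 passed limma's test at an adjusted p under 0.05 (Benjamini-Hochberg, on log2(FPKM + 0.5)), 9 had a log2 difference below 0, and the list's median was -0.21. With labelled sex in the model 8 of the 11 lay above 0 at a median of 0.23.

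Few genes separated the groups by the test. Of 12437 genes that averaged 1 FPKM or more over the libraries, limma called 10 (0.0804%), 7 higher (0.0563%) and 3 lower (0.0241%) in transgenic colon. All differences are uninjected minus KO unless a sentence says otherwise. A total of 572 genes (4.6%) had an unadjusted p under 0.05, 1.87% higher and 2.73% lower. The groups of 337 genes (2.71%) did not overlap, 152 higher (1.22%) and 185 lower (1.49%). With groups assigned at random, a gene's groups would lack overlap in a share of 0.0286, and the share seen was no larger. Lack of overlap alone thus does not set a gene apart from chance. The median log2 difference over all genes tested was -0.01.

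**Figure D1:**
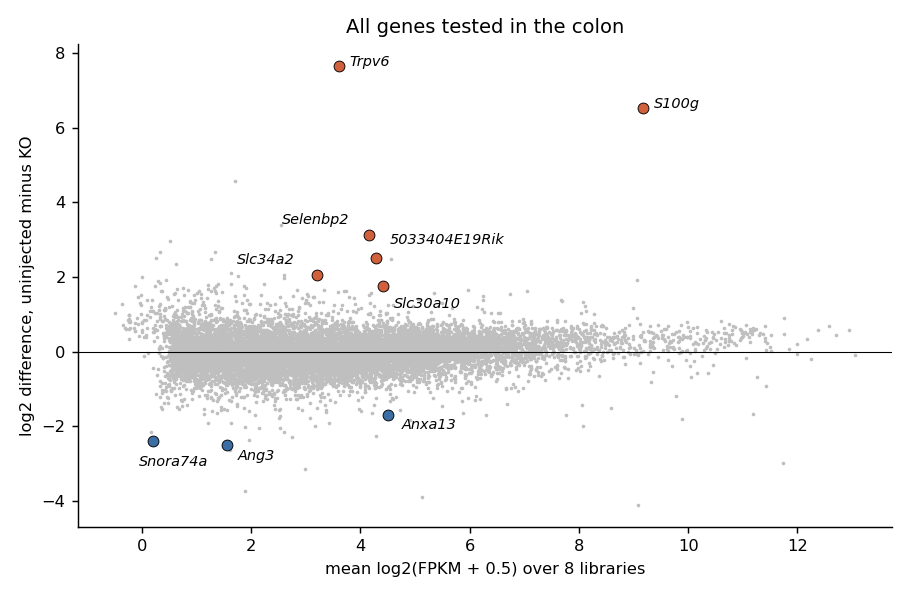
Each point is 1 of the genes tested in the colon, by its mean log2(FPKM + 0.5) over the 8 libraries (x axis) and its log2 difference, uninjected minus KO (y axis); the larger points are the 9 named genes past the threshold, orange where higher and blue where lower. Trpv6 (7.66) and S100g (6.52) lie above every other gene, S100g at the higher mean level.

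Calcium entry and buffering carried the widest differences. Trpv6 (6:41570620-41586404) was all but silent in KO colon, at 0.20, 0.70, 0.09 and 0.59 FPKM, which rested on 14, 54, 6 and 55 recovered reads, and stood at 375.6, 132.2, 236.2 and 75.3 FPKM in transgenic colon. The lowest transgenic library was far above the highest KO library, and the means were 0.393 ± 0.295 and 205 ± 132 FPKM (SD, n = 4 each). On the log2 scale Trpv6 rose by 7.66 (SE 0.472, adjusted p = 0.000384, limma), and its size depends on the added 0.5 because the KO values lie near it. S100g (X:159399924-159402531) was expressed in KO colon, at 46.0, 53.4, 99.4 and 53.6 FPKM in Colon KO 1 to 4, and reached 5694, 1933, 27256 and 3176 FPKM in transgenic colon (means 63.1 ± 24.5 and 9515 ± 11930 FPKM, SD, n = 4 each). It rose by 6.52 on the log2 scale (SE 0.712, adjusted p = 0.0129), with Colon uninjected 3 far above the other transgenic libraries. That library had the fewest reads over the genes whose reads could be recovered, and is the one richest in acinar transcripts. Without it S100g differed by 5.75 (adjusted p = 0.00289) and Trpv6 by 7.51 (adjusted p = 0.00289). Neither order of the transgenic libraries followed the other: Trpv6 was highest in Colon uninjected 1, S100g in Colon uninjected 3.

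The remaining calcium genes gave no call. Atp2b1, the pump that completes the transcellular route, stood at 47.8, 39.1, 44.6 and 45.3 FPKM in KO and at 48.4, 38.0, 126.4 and 91.4 FPKM in transgenic colon. Colon uninjected 3 and 4 were high, Colon uninjected 1 lay just above the KO range and Colon uninjected 2 just below it (log2 0.62, SE 0.356, adjusted p = 0.721). Trpv5, the renal-type calcium channel encoded next to Trpv6, had no value above 0 in KO colon, and its transgenic values of 0.25, 0.02, 0.37 and 0.07 FPKM rested on 11, 1, 8 and 8 recovered reads and lay below the level filter. Cyp24a1 was listed at 0 in KO and at 0, 0.28, 1.199 and 0.03 FPKM in transgenic colon, so the feedback gene was at or near 0 in uninjected animals. Of the 13 genes of the calcium list found, 5 were tested, 2 rose and 3 did not pass. The hormone-sensing Casr and the cytosolic buffer Calb1 were at most 0.11 FPKM in each of the 8 libraries. By an exact two-sided permutation test of mean FPKM over the 70 regroupings of 4 against 4, Trpv6, S100g, Slc30a10 and Trpv5 each reached the smallest possible p of 0.0286 (adjusted over 7 genes to 0.05). The remaining panel genes gave an exact permutation p of 0.6 for Vdr, 0.143 for Cyp24a1 and 1 for Slc37a2. Slc37a2, a sugar-phosphate exchanger, stood at 49.5, 47.3, 32.9 and 44.7 FPKM in KO and at 163.1, 23.0, 12.1 and 8.30 in transgenic colon. Colon uninjected 1 was far above and the other transgenic libraries below every KO library.

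Transporters of phosphate and manganese rose with the calcium genes. Slc34a2 (5:53429321-53462903), the sodium-phosphate cotransporter of intestinal brush borders, stood at 4.31, 4.76, 4.11 and 2.98 FPKM in KO and at 15.6, 19.9, 20.5 and 17.6 in transgenic colon. The values within each group were close and the groups well apart, with means of 4.04 ± 0.757 and 18.4 ± 2.25 FPKM (SD, n = 4; rose by 2.06 on the log2 scale, SE 0.202, adjusted p = 0.00832). It was the one gene of 4 tested phosphate transporters to pass: Slc20a1, a housekeeping phosphate transporter, had a log2 difference of -0.97 (SE 0.563, adjusted p = 0.721) with overlapping groups. Slc30a10 (1:187278727-187292641), which exports manganese from the cell, stood at 12.4, 9.40, 11.8 and 11.4 FPKM in KO and at 38.1, 30.4, 34.8 and 55.8 in transgenic colon (rose by 1.75, SE 0.224, adjusted p = 0.0275). Colon uninjected 4 was its highest library, and the call was lost when any of 7 of the 8 libraries was left out, Colon uninjected 4 being the exception.

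The other zinc and manganese genes did not pass the test. The metal-binding metallothionein Mt1 stood at 579.4, 293.2, 420.6 and 185.6 FPKM in KO and at 1561, 601.3, 791.1 and 466.6 in transgenic colon, with Mt2 alongside (log2 1.18, SE 0.449, and 1.35, SE 0.464; adjusted p = 0.721 each). The groups overlapped for both genes. The zinc exporter Slc30a1 stood lower in every transgenic library (9.95 to 11.6 FPKM) than in any KO library (11.9 to 15.7), at a log2 difference of -0.31 (SE 0.175, adjusted p = 0.721). Of 14 tested genes of this list 6 lay above 0, with a median of -0.02. Without Colon uninjected 3 or without Colon uninjected 4, 8 of the 14 did, at medians of 0.06 and 0.02.

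Near Slc30a10 on chromosome 1, with 1 RefSeq gene between them, lies 5033404E19Rik, annotated there as a transcribed pseudogene. It too was higher in transgenic colon, at 46.4, 32.4, 90.8 and 31.9 FPKM against 7.23, 10.7, 5.53 and 7.87 in KO. No transgenic library overlapped a KO library, yet its adjusted p of 0.04996 lay at the threshold (rose by 2.51, SE 0.35). Leaving out any KO library, Colon uninjected 1 or Colon uninjected 2 ended that call. Reads of a pseudogene may be shared with its parent gene.

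Selenbp2 encodes a selenium-binding protein nearly identical to its neighbour Selenbp1, so that reads may be shared. Selenbp2 (3:94497478-94508335) stood at 6.98, 5.75, 6.62 and 3.43 FPKM in KO and at 54.9, 45.1, 46.8 and 63.6 in transgenic colon, with means of 5.69 ± 1.60 and 52.6 ± 8.504 FPKM (SD, n = 4; rose by 3.13, SE 0.246, adjusted p = 0.00177). Selenbp1, far more abundant at 751.7 to 1405 FPKM in KO and 848.0 to 2424 in transgenic colon, overlapped between groups (log2 0.24, SE 0.37, adjusted p = 0.83). Of 11 tested genes of selenium-binding and selenoproteins, Selenbp2 alone passed, and 8 lay above 0 at a median of 0.34. With labelled sex in the model 4 of the 11 lay above 0 at a median of -0.28.

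**Figure D2:**
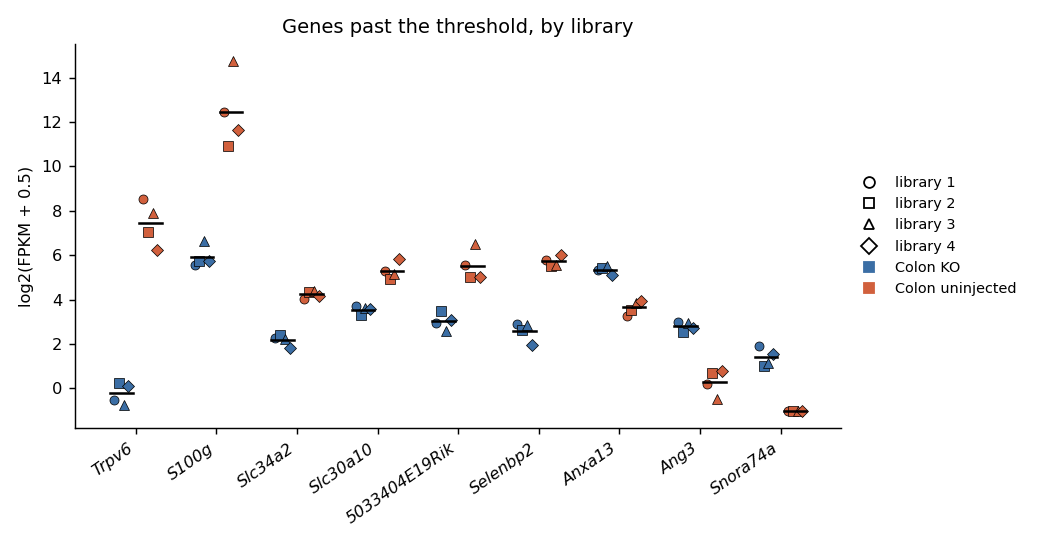
Each point is 1 library, with log2(FPKM + 0.5) on the y axis and the 9 named genes past the threshold on the x axis, blue for Colon KO and orange for Colon uninjected; bars mark group means of 4 libraries. The groups are separate for every gene shown, and Colon uninjected 3 (orange triangle) stands highest for S100g and 5033404E19Rik.

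The genes that fell numbered 3. Anxa13 (15:58173429-58197682), an annexin that binds membranes in intestinal epithelium, stood at 40.2, 42.2, 45.0 and 34.3 FPKM in KO and at 9.21, 11.0, 13.97 and 14.8 in transgenic colon. All 4 transgenic libraries were below the lowest KO library by a wide margin, with means of 40.4 ± 4.51 and 12.3 ± 2.61 FPKM (SD, n = 4; fell by 1.70 on the log2 scale, SE 0.207, adjusted p = 0.0256). It was 1 of 18 tested annexins and calpains to pass, and 13 of the 18 lay below 0 at a median of -0.14. Leaving out Colon uninjected 3 put 10 of these 18 above 0, at a median of 0.04. Ang3, a secreted ribonuclease of the angiogenin family, stood at 7.47, 5.38, 7.25 and 6.10 FPKM in KO and at 0.64, 1.10, 0.22 and 1.21 in transgenic colon (fell by 2.52, SE 0.31, adjusted p = 0.0256).

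The angiogenin family as a whole leaned the same way, with 5 of 6 tested members below 0 at a median of -0.66 and only Ang3 past the threshold. Ang4, a secreted ribonuclease active against gut microbes, stood at 3277, 2224, 2507 and 1372 FPKM in KO and at 8.98, 420.8, 304.4 and 230.9 in transgenic colon. The groups were widely apart, but Colon uninjected 1 lay far below the other transgenic libraries (log2 -4.11, SE 1.05, adjusted p = 0.721). Without Colon uninjected 1 Ang4 passed (log2 -2.85, adjusted p = 0.0494), and without Colon uninjected 1 and 2 the difference was -3.08 (adjusted p = 0.0774). Ang4 passed in only this 1 of 8 leave-outs and in 1 of 16 other settings. With the GC and length trend removed its adjusted p was 0.694. Rnase4, which shares its locus with Ang, differed by -0.95 (SE 0.344, adjusted p = 0.721) with overlapping groups. Near-identical copies in this family may share reads. The third gene that fell, the small nucleolar RNA Snora74a, was listed at 0 in the 4 transgenic libraries and at 3.25, 1.49, 1.73 and 2.45 FPKM in KO (adjusted p = 0.0271). Its values stood 2, 1, 1 and 2 steps above 0, a step being the smallest unit that fits them, and poly(A) selection captures such RNAs poorly.

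Next came genes short of the threshold, named where their groups did not overlap and their p was smallest. Aadac, an arylacetamide deacetylase, came nearest with 27.2, 26.9, 35.4 and 21.9 FPKM in KO and 10.3, 6.41, 11.1 and 7.71 in transgenic colon (log2 -1.61, SE 0.235, adjusted p = 0.0674). Aadac passed in 1 of 8 leave-outs, that of Colon uninjected 4 (adjusted p = 0.0447), and in 3 of 16 other settings. Its adjusted p was 0.424 with the GC and length trend removed. With labelled sex in the model its difference was -1.77. 1810030J14Rik, in RefSeq Mptx1 or mucosal pentraxin 1, a secreted protein of the gut epithelium (1:176260649-176263004), was among the most abundant transcripts of KO colon. It stood at 12844, 10205, 9023 and 7074 FPKM there and at 821.7, 1749, 2510 and 580.2 in transgenic colon (log2 -2.99, SE 0.472, adjusted p = 0.112). The lowest KO library was thus well above the highest transgenic one. 1810030J14Rik passed with the GC and length trend of each library removed (log2 -3.07, adjusted p = 0.0062), and without Colon uninjected 4 (-2.64, adjusted p = 0.044). It did not pass with any of the other 7 libraries left out, and passed in 3 of 16 other settings. With labelled sex in the model its difference was -4.04, and without Colon uninjected 1 and 2 its adjusted p was 0.458.

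A block of neighbouring genes on chromosome 15, all short of the threshold, was lower together. Gsdmc, Gsdmc2, Gsdmc3 and Gsdmc4 (15:63607526-63734491 from the first to the last) encode gasdermin C proteins, which can form membrane pores and are found in intestinal epithelium. Gsdmc4 stood at 711.9, 707.7, 434.6 and 787.7 FPKM in KO and at 214.0, 239.8, 156.0 and 326.4 in transgenic colon (log2 -1.51, SE 0.293, adjusted p = 0.393). Gsdmc2 (log2 -1.71, SE 0.34), Gsdmc3 (-1.66, SE 0.364) and Gsdmc (-0.98, SE 0.234) also had groups that did not overlap, with adjusted p from 0.444 to 0.721. Gsdmc4 and Gsdmc2 each passed in 1 of 8 leave-outs, and Gsdmc3 and Gsdmc in 0. Within each group Colon KO 3 and Colon uninjected 3 were lowest for all 4 genes. The copies are closely similar and reads may be shared, so they are not 4 separate observations.

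The remaining genes on the lower side had varied roles. Clca3, in RefSeq Clca1, a metalloprotease secreted into mucus by goblet cells, stood at 5109, 4287, 3710 and 3610 FPKM in KO and at 920.2, 2183, 796.8 and 1821 in transgenic colon (log2 -1.66, SE 0.372, adjusted p = 0.721). Pla2g4c, a cytosolic phospholipase, stood at 24.2, 14.6, 2.60 and 28.9 FPKM in KO and at 0.20, 0.55, 0.35 and 1.15 in transgenic colon. Colon KO 3 was its lowest KO library, and without that library it passed (log2 -4.46, adjusted p = 0.00707), against -3.75 and adjusted p = 0.213 with it. This was the only leave-out of 8 in which Pla2g4c passed, and it passed in 1 of 15 other settings. With the GC and length trend removed its adjusted p was 0.336. Hsd3b2, a steroid dehydrogenase, Dpyd, which degrades pyrimidines, Nt5e, the ectonucleotidase CD73, and B3gnt5, a glycosyltransferase, had log2 differences of -1.57, -1.69, -1.10 and -1.52. D330028D13Rik, 2810474O19Rik and Ankrd57, in RefSeq Fam221a, Resf1 and Sowahc, had differences of -1.35, -2.65 and -0.92. Adjusted p ran from 0.527 to 0.721 over these 7 genes.

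On the higher side the difference of Abhd1, a hydrolase-fold protein, was the widest, with 0, 0, 1.11 and 0 FPKM in KO and 1.64, 43.9, 28.3 and 22.9 in transgenic colon (log2 4.57, SE 0.872, adjusted p = 0.373). Colon uninjected 1 lay near the KO libraries. Pla2g3, a secreted phospholipase, stood at 4.34, 4.08, 4.23 and 3.91 FPKM in KO and at 19.8, 8.45, 16.8 and 7.56 in transgenic colon (log2 1.45, SE 0.313, adjusted p = 0.71). Transporters were among the rest: Slc3a1, a subunit of the cystine and basic amino acid carrier, at 10.1 to 16.8 against 19.3 to 34.1 FPKM (log2 0.92, SE 0.239), and Slc5a6, the sodium-dependent carrier of biotin and pantothenate, at 2.87 to 3.57 against 3.97 to 9.54 FPKM (log2 0.86, SE 0.263), both at adjusted p = 0.721. The 11 others named by the same rule ran from log2 0.74 for Zyx to 2.48 for Hist2h2bb. They were Ly6g6c, Clasrp, Chpf2, Cyp2c69, Apol6, Gatsl3, Tspan4, BC021767 and Aplp1 beside those 2, all at adjusted p = 0.721.

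**Figure D3:**
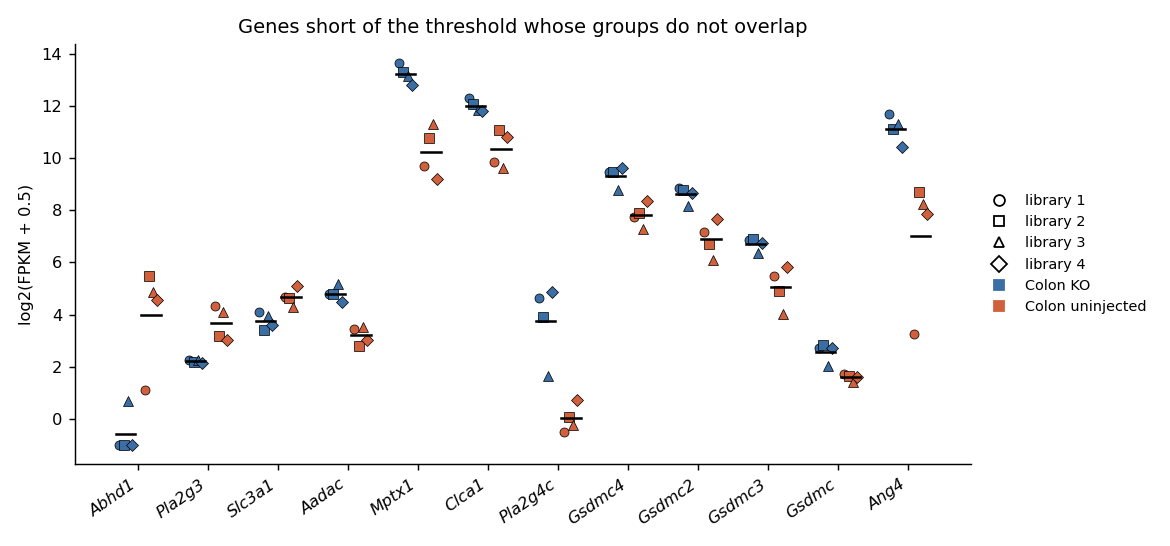
Log2(FPKM + 0.5) of 12 genes short of the threshold whose groups do not overlap, 1 point per library (blue for Colon KO, orange for Colon uninjected, bars for group means of 4 libraries). Mptx1 and Clca1 are the RefSeq names of 1810030J14Rik and Clca3; for each of the 4 gasdermin genes library 3 (triangle) is the lowest of its group.

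Epithelial lineages were compared through gene lists, beside the background that 49.3% of all genes tested had a difference above 0. Of 13 goblet cell genes tested 0 passed, 11 lay below 0 and the median was -0.55. Clca3, the goblet cell gene named above whose groups did not overlap, is not in this list. Muc2, the gel-forming mucin, stood at 1772, 1650, 1776 and 1307 FPKM in KO and at 949.7, 1395, 679.9 and 1522 in transgenic colon (log2 -0.58, SE 0.307, adjusted p = 0.721). Spink4, Muc13 and the secretory-lineage factor Atoh1 had differences of -0.93, -0.81 and -0.60, each with overlapping groups. The goblet genes summed to 15542 to 26915 FPKM in KO and 15287 to 27538 in transgenic colon, so the total did not separate the groups. Without Colon uninjected 3 the median was -0.36, with 11 of 14 below 0.

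Antimicrobial genes went both ways. Of 15 tested 0 passed, 7 lay above 0 and 8 below, with a median of -0.08. The split was 8 above and 7 below without Colon uninjected 3. Reg3b and Reg3g, lectins that kill or repel bacteria, had differences of 1.93 (SE 0.652) and 1.63 (SE 0.48) with overlapping groups, whereas Reg4 stood at 394.8 to 820.1 FPKM in KO and 47.7 to 390.8 in transgenic colon (log2 -2.01, SE 0.558, adjusted p = 0.721). The absorptive list, which holds enterocyte hydrolases and lipid transport genes, had 11 of 17 above 0 at a median of 0.51 and 0 past the test. Its member with the smallest p, the aminopeptidase Anpep, stood at 4.87, 6.36, 17.95 and 8.95 FPKM in KO and at 56.3, 11.9, 50.03 and 9.35 in transgenic colon (log2 1.44, SE 0.629, adjusted p = 0.721). Without Colon KO 2 and Colon uninjected 3, the libraries rich in acinar RNA, the median of the absorptive list was 0.05, and without Colon KO 2 alone 8 of the 17 lay above 0.

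Genes that mark the position along the gut had 13 of 15 below 0 at a median of -0.34. Cdx2, the factor whose promoter drives the transgene, stood at 99.8 to 181.2 FPKM in KO and 98.2 to 245.6 in transgenic colon (log2 0.24, SE 0.31). Hoxd13, a gene of the most distal gut, stood at 8.26, 13.98, 1.91 and 20.9 FPKM in KO and at 12.0, 2.20, 0.14 and 0.55 in transgenic colon (log2 -2.04, SE 0.944, adjusted p = 0.721). It varied as widely within the groups as between them. Without Colon uninjected 3, 8 of the 15 lay below 0 at a median of -0.08, so the lean of this list rested on 1 library.

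Barrier and transport genes held no call either. Of 17 tight junction genes 10 lay below 0 at a median of -0.24, and 3 had every transgenic library below every KO library (1.49% of all genes did so). These were Cldn2, a leaky claudin that passes cations, at 61.6 to 93.0 against 15.05 to 46.5 FPKM, Cldn8, a sealing claudin of the distal colon, at 27.1 to 50.4 against 5.34 to 26.8, and the adhesion molecule F11r at 95.5 to 113.3 against 40.9 to 95.3. Without Colon uninjected 3 the list's median was 0.03, with 9 of 17 above 0. Of 21 genes of ion and water transport 14 lay below 0 at a median of -0.24. Without Colon uninjected 3, 11 of them did at a median of -0.01, and without Colon KO 2 and Colon uninjected 3, 13 of the 21 lay above 0 at a median of 0.06. Among them the colonic proton pump Atp12a ranged from 27.2 to 110.7 FPKM in KO and from 3.68 to 137.2 in transgenic colon (log2 -1.83, SE 0.969, adjusted p = 0.721). Slc5a8 and Slc16a1, carriers of the short-chain fatty acids on which colonocytes feed, had differences of -0.74 (SE 0.281) and -0.49 (SE 0.202). In the steroid dehydrogenase list 8 of 9 lay below 0 at a median of -0.15, and with labelled sex in the model 4 of 9 did. Hsd3b2 and Hsd3b3 had groups that did not overlap, Hsd3b3 at 113.3 to 187.0 against 16.8 to 89.8 FPKM (log2 -1.72, SE 0.511, adjusted p = 0.721), and belong to a cluster of near-identical copies.

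No gene of iron or magnesium handling passed the test. Of 11 iron genes 5 lay above 0 at a median of -0.09, and 6 did without Colon uninjected 3 or without Colon uninjected 4, at medians of 0.02 and 0.01. Hmox1, which degrades haem, stood at 3.73 to 4.85 FPKM in KO and 5.19 to 15.6 in transgenic colon (log2 0.86, SE 0.339), and the iron importer Slc11a2 at 14.3 to 17.3 against 12.5 to 14.2 (log2 -0.16, SE 0.168). Of 9 magnesium genes 6 lay above 0 at a median of 0.07. Slc41a3 and Cnnm2 were higher without overlap, as were 1.22% of all genes tested, with differences of 0.48 and 0.34. All 4 were at adjusted p of 0.721 or above.

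Markers of other cell types moved as follows, and their part in the results above was not tested. All 8 endothelial genes tested lay below 0, at a median of -0.60, and 5 of them had every transgenic library below every KO library: Emcn (5.66 to 7.31 against 3.46 to 4.26 FPKM), Kdr, Cdh5, Flt1 and Pecam1. Over all genes tested 1.49% were lower without overlap. The differences of these 5 were -0.61, -0.60, -0.72, -0.43 and -1.13, and 0 passed the test. Without Colon uninjected 3 they were -0.57, -0.51, -0.43, -0.39 and -0.47. With labelled sex in the model they were -0.68, -0.32, -0.31, -0.40 and -0.24. The list summed to 46.4 to 57.5 FPKM in KO and 23.1 to 49.2 in transgenic colon, and without Colon uninjected 3 its median was -0.45, with 7 of 8 below 0. With the GC and length trend removed, all 8 again lay below 0, at a median of -0.44. Pdgfra of fibroblasts stood at 5.49 to 7.49 against 1.71 to 4.36 FPKM (log2 -1.04, SE 0.286, adjusted p = 0.721), while the matrix list had a median of 0.17. Without Colon uninjected 1 and 2 the matrix median was -0.15, and with labelled sex in the model all 13 matrix genes tested lay below 0 at a median of -0.52.

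Of the immune marker lists, MHC class II and lymphocyte genes lay mostly above 0 and those of macrophages and neutrophils went both ways, and 0 genes of these lists passed. All 8 genes of MHC class II presentation lay above 0 at a median of 0.60, led by H2-Oa (log2 1.05, SE 0.353), and 13 of 16 lymphocyte genes did at a median of 0.62. The T cell receptor subunit Cd3e stood at 0.68 to 1.91 FPKM in KO and 2.01 to 2.33 in transgenic colon, B cell Cd79a at 4.56 to 13.3 against 8.68 to 30.9, and Coro1a of leukocytes at 12.2 to 19.4 against 16.2 to 79.3. Their differences were 0.68, 1.15 and 1.25, all at adjusted p = 0.721. The lymphocyte list summed to 266.5 to 436.1 FPKM in KO and 196.0 to 558.1 in transgenic colon, which overlapped. With labelled sex in the model 4 of the 8 MHC class II genes lay above 0, at a median of 0.03. Macrophage and neutrophil genes had 7 above and 6 below 0 at a median of 0.10. Without Colon uninjected 2, 2 of 13 of them lay above 0 at a median of -0.15, and with the GC and length trend removed 3 of 13 did at a median of -0.08. The acute phase genes Saa3, C3 and Socs3 had differences of 1.39, 0.53 and 0.41. The last 2 were higher without overlap, as were 1.22% of all genes tested. Of 11 genes of enteric neurons and glia 10 lay above 0, among them neuronal Uchl1 at 17.4 to 30.4 against 19.3 to 160.6 FPKM (log2 1.56, SE 0.564) and Elavl4 (log2 0.44). Without Colon uninjected 1 and 2, 5 of the neural genes lay above and 5 below 0. Smooth muscle genes summed to 2677 to 3778 FPKM in KO and to 9315, 6918, 880.8 and 2620 in the transgenic libraries, in order, so that muscle RNA varied among transgenic samples more than between groups.

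**Figure D4:**
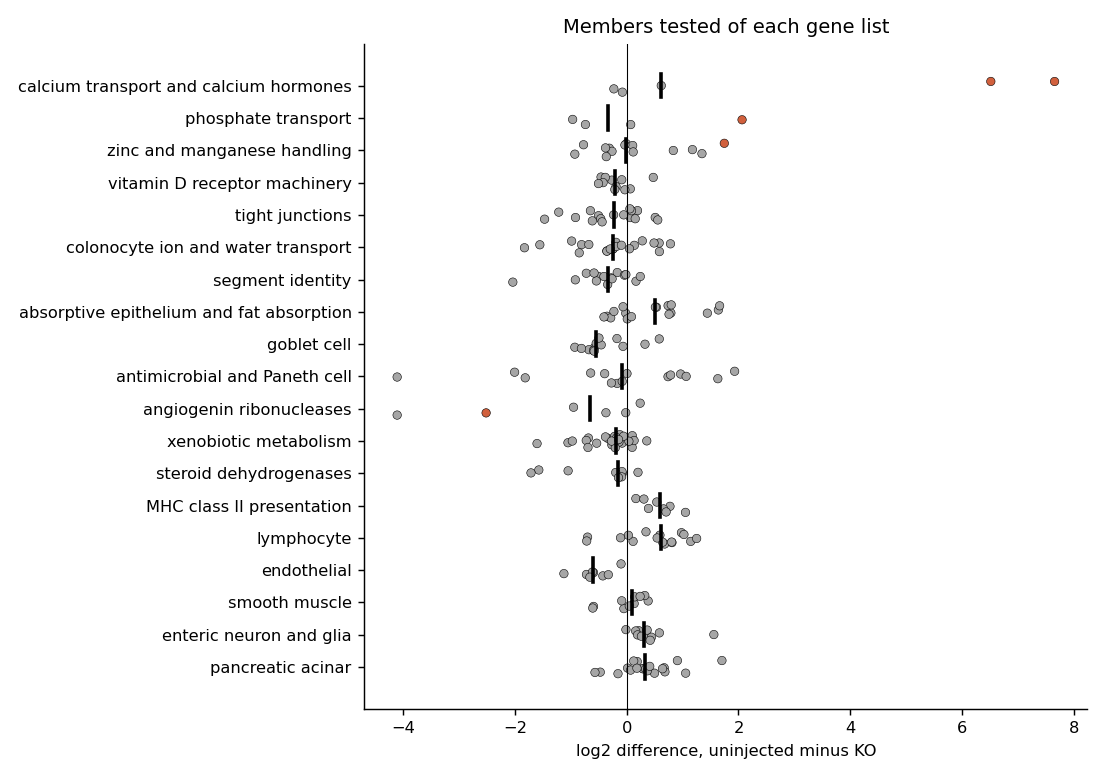
Each point is 1 tested member of a gene list (y axis) by its log2 difference, uninjected minus KO (x axis), jittered vertically; black bars are list medians and orange points passed the threshold. Orange points lie in the calcium, phosphate, zinc and manganese, and angiogenin lists only among those shown, the endothelial members lie at or below -0.10 and the MHC class II members above 0.16.

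The same contrast was available in the ileum, with 4 KO and 3 uninjected libraries of the same genotypes and strain, also untreated apart from any tamoxifen. The KO mice were labelled male, of 9 or 11 weeks, and the uninjected mice 2 female of 9 weeks and 1 male of 10 weeks. To test whether the contrast itself differed, limma was fitted to all 15 libraries. Of 12364 genes 1 passed (0.00809%), Trpv6, and 147 (1.19%) had an unadjusted p under 0.05. In the ileum it stood at 0.13, 0.10, 0.14 and 0.16 FPKM in KO and at 1.59, 2.15 and 0.11 in transgenic libraries, so that the ileal channel stayed low where the colonic one did not (log2 difference 1.24 in the ileum, ileum minus colon -6.42, SE 0.718, adjusted p = 0.00273). With an added 0.1 in place of 0.5 this call was lost (-6.69, SE 1.03, adjusted p = 0.128), and it held in the other 23 of 24 settings. The labels do not say whether colon and ileum came from the same mice, so the 15 libraries were treated as independent. S100g behaved otherwise: it stood at 22.6, 23.2, 30.2 and 19.6 FPKM in ileal KO and at 5345, 3733 and 453.1 in ileal transgenic libraries (log2 6.43, SE 0.822), and its tissue difference was -0.08 (SE 1.12, adjusted p = 1).

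Of the other genes called in the colon none passed the test of the tissue difference. Slc34a2 was at 93.2 to 188.9 FPKM in ileal KO and 87.9 to 301.6 in ileal transgenic libraries, far above its colonic level in either group, with an ileal difference of 0.28 (SE 0.351). Selenbp2 was low in the ileum, at 1.22 to 1.73 and 2.16 to 4.45 FPKM, and its tissue difference of -2.29 (SE 0.362) came second with an adjusted p of 0.0854. 5033404E19Rik, which was present in colonic KO libraries, was at most 0.21 FPKM in ileal KO libraries and stood at 103.4, 11.4 and 12.6 in ileal transgenic libraries (tissue difference 3.00, SE 0.804, adjusted p = 1). Anxa13 and Ang3 had ileal differences of -0.64 (SE 0.346) and -0.16 (SE 0.428), and neither tissue difference passed (1.06 and 2.36, adjusted p = 1). Ileal levels per gene are on the scale of their own table, so levels are set beside the colonic ones only roughly.

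**Figure D5:**
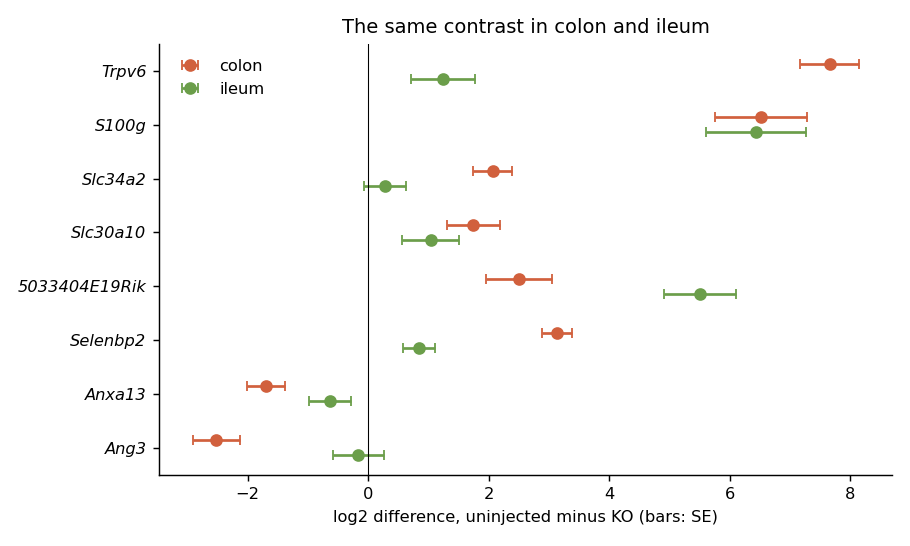
Log2 difference, uninjected minus KO (x axis), of 8 genes past the threshold in the colon (y axis), in colon (orange, 4 against 4 libraries) and ileum (green, 4 KO against 3 uninjected libraries), with bars of 1 SE from the fit over both tissues. Trpv6 is at 7.66 in the colon and 1.24 in the ileum, while S100g is at 6.52 and 6.43.

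The calls rested to different degrees on single libraries. Trpv6 and Selenbp2 passed with each of the 8 libraries left out in turn. S100g passed in 5 of 8 leave-outs, Slc34a2 in 6, Anxa13 in 3, 5033404E19Rik and Ang3 in 2 and Slc30a10 in 1. Snora74a passed in 2 of the 6 leave-outs that kept it above the level filter, and the log2 differences of these genes kept their sign throughout. Without Colon KO 2 and Colon uninjected 3, the acinar-rich libraries, 3 genes passed, Trpv6, S100g and Selenbp2 (log2 7.67, 5.70 and 3.20). Without Colon uninjected 1 and 2, which showed the GC slope, Trpv6 passed at a log2 difference of 7.29 (adjusted p = 0.0201), and Selenbp2, Slc34a2, Anxa13 and S100g had adjusted p from 0.0685 to 0.0726. Of the 3 genes that passed there, 1 was among the original calls. When the sex given in the labels was added to the model, the difference rested on Colon uninjected 4 alone against the KO libraries. Trpv6 then differed by 6.47, and S100g, Selenbp2, Slc30a10 and Slc34a2 by 5.71, 3.41, 2.27 and 2.01. Leaving out Colon uninjected 4 raised the count of genes past the threshold to 68. Of these 53 were lower in transgenic colon and 10 were the original calls. Leaving out Colon KO 1 reduced the count to 2.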

How the data were processed

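The authors deposited FPKM per gene (21441 genes) in 6 tables of 2 groups each. Per the labels' protocols, poly(A) RNA was mapped with CLC Genomics Workbench, and per the submitters' processing notes the build was mm9. Those notes list DESeq2, DESeq 1.14.0 and kallisto 0.45.0, without saying what each did. The annotation and any filters were not stated in the sources used here. The deposited values also carry a scale of their table. In Colon KO 1 to 4 the median gene stood at 0.933 to 0.944 times its value in the table with treated libraries. Scaling by median of ratios kept all 10 calls. Any lowering of other values by abundant pancreatic transcripts was not tested. The colon table of KO and uninjected libraries was used for all colon values, the matching ileum table for the tissue difference, and the 3 colon columns of transgenic mice injected with 1,25D3 only in 1 alternative.

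Genes averaging 1 FPKM or more were tested on log2(FPKM + 0.5) with limma 3.58.1 (intensity trend, two-sided, Benjamini-Hochberg over all genes tested, threshold 0.05) in R 4.3.3. Such differences understate changes of low genes. Tables and plots used Python 3.11.15, numpy 2.4.6, pandas 2.3.3 and matplotlib 3.10.9. Reads were recovered for 13303 of 17788 genes (74.79%) whose values were whole multiples of a step within 0.01 and whose step agreed within 2 times with the gene's length. Data with 200 changed genes were simulated for this comparison (12437 genes) over 10 draws. The test recovered 24.2% of genes set to change 2-fold, 69.8% of those at 4-fold and 89.8% of those at 8-fold. False calls had a median of 3.5 and were at most 8. Noise was drawn independently for each gene, without effects shared by the genes of a library, so these figures may not hold for the real libraries.

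Gene lists (43, with 590 symbols found) and named genes were chosen with earlier results of these data known. Named are Vdr and the protocol's qPCR panel, genes past the threshold, up to 15 per direction by smallest p among those without overlap and with 5 FPKM or more in the higher group, and at most 4 list members by p, plus any without overlap. Selenbp1, Cdx2, Epcam, Car1, Casr and Calb1 were named after their values were seen. A gene past the threshold is not reported here but stays in the counts. Coordinates are those of mm9 unless given with RefSeq promoters. Alternatives changed the pseudocount, filter, scaling, prior, weights, groups in the fit, sex covariate, replicate block and libraries. Chosen after seeing the data were removal of the GC and length trend, leaving out Colon uninjected 1 and 2, a block of KO numbers across tissues, and voom on recovered reads (74.79% of genes whole), which called 6 of 9092 genes.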

Additional observations from a re-analysis of the deposited data

Results flagged for a closer look

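Among 43 genes and 83 pairs of a gene and a group of 4 libraries, 2 held a library far from the other 3 by Dixon's criterion on the log2 scale, where chance alone gives about 1 in 20. Abhd1 stood at 1.1079 FPKM in Colon KO 3 and was listed at 0 in the other KO libraries. Gsdmc stood at 3.6084 FPKM in Colon KO 3 against 5.9971 to 6.5476 in the other KO libraries, and the 3 neighbouring gasdermin genes were lowest in the same library.

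Trpv6 differed between tissues by the test of the difference itself: the ileal minus the colonic value of uninjected minus KO was -6.417 on the log2 scale (SE 0.718, adjusted p = 0.00273, limma), and ranged from -6.83 to -5.77 over 24 other settings.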

How the results depend on the processing

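The count of genes past the threshold, 10 as reported, was 6446 with array weights (which ran from 0.136 to 6 over the libraries). It was 6 with voom on recovered reads, 3 without Colon KO 2 and Colon uninjected 3, and 3 without Colon uninjected 1 and 2. With 1 library left out it ran from 2 to 68. The other alternatives, besides the replicate block below and labelled sex, which rests on Colon uninjected 4 alone, gave 7 to 11. The cause of these changes was not tested, apart from the smaller number of libraries or genes where some were left out.

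With the replicate number as a block 3 genes passed. No identifier of an animal is given to tie same-numbered libraries together. Their deviations correlated at 0.004, -0.003, -0.006 and 0.671 for numbers 1 to 4, the last being the highest of all pairs of a KO and an uninjected library. No paired analysis was possible for the uninjected libraries of both tissues because the ileal columns are numbered 1, 3 and 4 and their samples 1 to 3. Same-numbered KO libraries of colon and ileum correlated at 0.06, -0.137, 0.453 and 0.632, and with those numbers as a replicate block 1 gene passed, Trpv6 (adjusted p = 0.041). The tissue difference gave 0 genes with a pseudocount of 0.1, 2 with a pseudocount of 1, and 1 to 3 with a library left out.

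For single genes with a library left out, the difference in mean FPKM ran from 147.48 to 247.57 for Trpv6, 3537.8 to 11979 for S100g, 0.1138 to 0.22914 for Trpv5, 0.10403 to 0.50357 for Cyp24a1, -0.3053 to 6.7762 for Vdr and -29.109 to 22.477 for Slc37a2. By exact permutation Slc30a10 kept p = 0.0286 with any 1 library left out. Without any 1 KO library the exact p was 0.0571 for Trpv6 and 0.171 for S100g and Trpv5. Without Colon uninjected 1 it was 0.0286 for Cyp24a1 and Slc37a2. The mean of log2 values gave -0.76989 for Slc37a2. The log2 difference of Vdr changed sign with array weights (-0.17618), without Colon uninjected 1 and 2 (-0.091716) and with 1 library left out (-0.1222 to 0.33844). That of Atp2b1 did so with array weights (-0.082979), and those of Rnase4 (0.0015514), Uchl1 (-0.2675), Ddx3y (0.071679), Tph1 (0.21927), Mki67 (0.3726) and Selenbp1 (-0.3038) with the sex covariate. Without Colon uninjected 1 and 2 the sign changed for Mki67 (0.20569), Cdx2 (-0.13368) and Selenbp1 (-0.11675), and for Selenbp1 also with quantile scaling (-0.042375) and with 1 library left out (-0.089498 to 0.41532). Depth limits Trpv6 in KO colon, Trpv5 and Cyp24a1, which rest on few reads.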

Other observations

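Enteroendocrine genes had 8 of 14 tested members below 0 at a median of -0.18, and 0 passed limma's test. The median was 0.08, with 8 of the 14 above 0, when Colon uninjected 3 was left out. Tph1, which makes serotonin in enterochromaffin cells, stood at 10.6, 9.49, 11.8 and 8.08 FPKM in KO and at 1.66, 4.10, 3.45 and 11.6 in transgenic colon (log2 -1.16, SE 0.451, adjusted p = 0.721). Colon uninjected 4 lay within the KO range, and the other transgenic libraries below it. Tuft cell genes had 7 of 8 below 0 at a median of -0.19, and without Colon uninjected 3 they had 4 above and 4 below at a median of -0.01. Cell cycle genes had 13 of 19 above 0 at a median of 0.16, and without Colon uninjected 3, 5 of 19 at a median of -0.20. Mki67 (log2 -1.06, SE 0.639, adjusted p = 0.721) stood at 10.9 to 26.2 FPKM in KO colon, at 2.82 and 3.09 FPKM in Colon uninjected 1 and 2, the libraries with the GC slope, and at 17.3 and 21.9 in Colon uninjected 3 and 4. Without Colon uninjected 1 and 2 its difference was 0.20569.

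Clock genes had 10 of 17 below 0 at a median of -0.17. With Colon uninjected 3 left out, 12 of 17 lay above 0 at a median of 0.08, and without Colon KO 2 or without Colon KO 3 the list was split evenly, 9 and 9. Bhlhe41, a repressor of the clock, stood at 0.25 to 0.79 FPKM in KO and 0.99 to 2.42 in transgenic colon without overlap (log2 0.96, SE 0.326, adjusted p = 0.721). Genes of cholesterol synthesis were split evenly, 10 above and 10 below 0, with 14 of 20 above 0 without Colon uninjected 1 and 6 of 20 without Colon uninjected 4. Of 16 interferon response genes 12 lay above 0 at a median of 0.21. Without Colon uninjected 4, 6 of them did at a median of -0.10, and without Colon uninjected 2, 8 did at a median of 0.03. Isg15 stood at 44.1 to 92.5 FPKM in KO colon. Its transgenic values were 42.2, 312.2, 210.6 and 102.4, so that Colon uninjected 1 alone lay below the KO range.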
